A study of Mus musculus with 4 samples.

Results

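The cyclin-dependent kinase inhibitors are a family of 7 genes in 2 structural classes, and their transcripts were followed in mouse epidermis that overexpresses either noggin or BMP4. The members were the CIP/KIP genes Cdkn1a, Cdkn1b and Cdkn1c and the INK4 genes Cdkn2a, Cdkn2b, Cdkn2c and Cdkn2d. A probe set was used where the platform annotation gives it exactly 1 gene symbol, equal to a member's. This left 6 of the 7 members, with 7 probe sets, out of 19938 named genes. The only probe set listing Cdkn1a, which encodes p21, also lists another gene, and Cdkn1a has no value here for that reason. Members were listed by name, and the probe set that stands for a gene was chosen by its log2 values, as the one with the highest average of the 4 arrays; Cdkn1b alone had a choice.

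The noggin mice overexpress noggin, a secreted protein that binds BMPs and keeps them from their receptors, and the BMP4 mice overexpress the ligand BMP4. Both transgenes are driven by the K14 promoter, which is active in basal keratinocytes. Epidermis was cut by laser from sections of hairless hindpaw skin, 8 to 10 strips an animal, and each array took a pool of RNA from 3 animals. With 6 animals a line, there were 2 arrays of noggin and 2 of BMP4 epidermis, so each replicate is a pool. A difference is always between the transgenic lines, since non-transgenic skin was not analysed here. The animals' age and strain are not given in the sources used here. All values are log2 intensities, and all differences are noggin minus BMP4 on the log2 scale.

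Cyclin-dependent kinases drive the cell cycle once a cyclin is bound. CIP/KIP proteins bind the assembled cyclin and kinase pair, mainly those with CDK2, and block it, whereas INK4 proteins bind CDK4 and CDK6 alone and keep D-type cyclins off. Keratinocytes leave the cycle as they move up from the basal layer, and inhibitors of both classes are known to take part in that arrest. Much of the control of p27, the Cdkn1b product, acts on its translation and breakdown, so its transcript level need not follow its protein.

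The promoters of 2 members are shown, Cdkn1b because it had the largest difference of the family, and Cdkn2b because its product p15 is the inhibitor best known as a target of TGF-beta in human keratinocytes and it differed little here. Each window runs from 250 bases before to 50 bases after the start of transcription, 5′ to 3′ on the gene's strand, from RefSeq on GRCm38.p6. Capitals mark GGCGCC, a GC-rich element that BMP-activated SMADs can bind. The Cdkn1b window lies at chr6:134920151-134920450 on the + strand and the Cdkn2b window at chr4:89310983-89311282 on the - strand.
Cdkn1b: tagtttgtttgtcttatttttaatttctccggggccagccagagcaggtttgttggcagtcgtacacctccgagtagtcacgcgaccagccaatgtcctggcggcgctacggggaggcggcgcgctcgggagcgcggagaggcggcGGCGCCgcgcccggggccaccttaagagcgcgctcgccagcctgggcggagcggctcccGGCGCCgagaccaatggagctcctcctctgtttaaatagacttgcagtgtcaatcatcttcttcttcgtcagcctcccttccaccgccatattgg
Cdkn2b: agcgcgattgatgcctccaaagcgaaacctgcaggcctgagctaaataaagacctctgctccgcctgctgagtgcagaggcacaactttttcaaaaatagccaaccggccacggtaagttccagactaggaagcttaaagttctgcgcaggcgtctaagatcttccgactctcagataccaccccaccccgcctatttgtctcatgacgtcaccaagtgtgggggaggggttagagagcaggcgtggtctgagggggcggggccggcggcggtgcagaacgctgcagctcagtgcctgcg
GGCGCC, which reads the same on both strands, stood at 2 places in the Cdkn1b window, starting 104 and 45 bases before the start site, and at 0 places in the Cdkn2b window. It was present in 11.9% of all 32851 windows of this length. The table has 9 windows of 6 members, Cdkn1c not among them, and 4 of the 9 windows hold it, 1 each of 4 genes. Of those genes, 3 (Cdkn2a, Cdkn2c and Cdkn2d) differed by no more than 0.16 in size between the groups. Neither match overlapped the other 4 motifs, which were searched on both strands and are given next. The Cdkn1b window also held CCAAT, the letters of the CCAAT box, at 3 places, against a motif share of 37.4% of all windows. GGGCGG, the letters of a GC box, stood at 1 place in each of the 2 windows, and 35.7% of all windows hold it. The FOXO letters GTAAACA, in 3.65% of all windows, and the SMAD palindrome GTCTAGAC, in 0.213%, were in neither. The Cdkn1b window has 62.0% G and C and the Cdkn2b window 57.7%, against a median of 52.7% over all windows. The windows of Cdkn2a, Cdkn2c and Cdkn2d that hold GGCGCC have 77.0%, 73.3% and 66.3%. The share of GGCGCC over all windows is not matched for G and C. The motifs were chosen after these promoters were seen, so the 2 against 0 places of GGCGCC are not a test. These matches describe the letters and are not measured binding.

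The 4 arrays had near-equal medians, 6.04 to 6.06. In BMP4 replicate 1, 87 named genes lay over 1 log2 unit away from every other array in the same direction, compared with 6 to 18 genes in the remaining arrays. Keratinocyte markers were bright in the captured strips: the 8 basal markers had gene means of 8.31 to 12.5, and the 7 measured suprabasal and granular markers 10.5 to 13.4. Muscle markers were also present, with gene means of up to 10.4 among 12 genes. At the adjusted threshold of 0.05, limma called 0 of 35556 probe sets (0%), and 1994 (5.61%) lay under 0.05 before adjustment. Nothing below passed that threshold, so the direction words give the order of the values on these 4 arrays. With 2 against 2 arrays, 0.333 is the smallest two-sided p an exact permutation test can give.

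Cdkn1b, which encodes p27, had a clear separation of the groups at 1 of its 2 probe sets, and the other measured members had none. That probe set represents the gene because its mean over these same arrays was higher, and the other one differed by only -0.18. The representing probe set, 10542317, read 8.18 and 8.57 in noggin epidermis, against 9.69 and 9.46 in BMP4 epidermis. Both noggin arrays were low and both BMP4 arrays high, and the highest noggin array lay 0.89 below the lowest BMP4 array. The means were 8.38 ± 0.277 in noggin and 9.58 ± 0.161 in BMP4 (SD, n = 2 each), which differ by -1.20 (95% interval -1.69 to -0.70), or 2.30-fold higher in BMP4. The adjusted p was 0.701 (limma), and the probe set ranked 118 by p among 35556. In bulk RNA, fewer cells that carry a transcript and less of it in each cell cannot be told apart. Of all named genes, 0.306% were lower in noggin by 1 log2 unit or more.

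The other Cdkn1b probe set, 10542310, had the same order of groups with a far smaller gap. It read 8.45 and 8.52 in noggin epidermis, against 8.68 and 8.66 in BMP4 epidermis. The difference was -0.18, with an interval from -0.43 to 0.06 and an adjusted p of 0.926 (limma), or 1.14-fold higher in BMP4. Across all 4 arrays it spanned 0.228, where the representing probe set spanned 1.51. The annotation lists 2 transcripts for the representing probe set and 6 for the other, with 1 in common.

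The size of the Cdkn1b difference therefore depends on which probe set is read. The representing probe set minus the other was -0.27 and 0.05 in the noggin arrays, against 1.01 and 0.80 in the BMP4 arrays. The higher mean that chose it thus came from the BMP4 arrays, and the choice favours the larger difference. With the mean of both probe sets the difference was -0.69. Among 999 genes with more than 1 probe set, 13 (1.3%) had probe sets whose differences lay at least 1.02 apart, the gap of Cdkn1b, and the median gap was 0.11. Whether the probe sets read different transcripts of Cdkn1b was not tested.

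**Figure D1:**
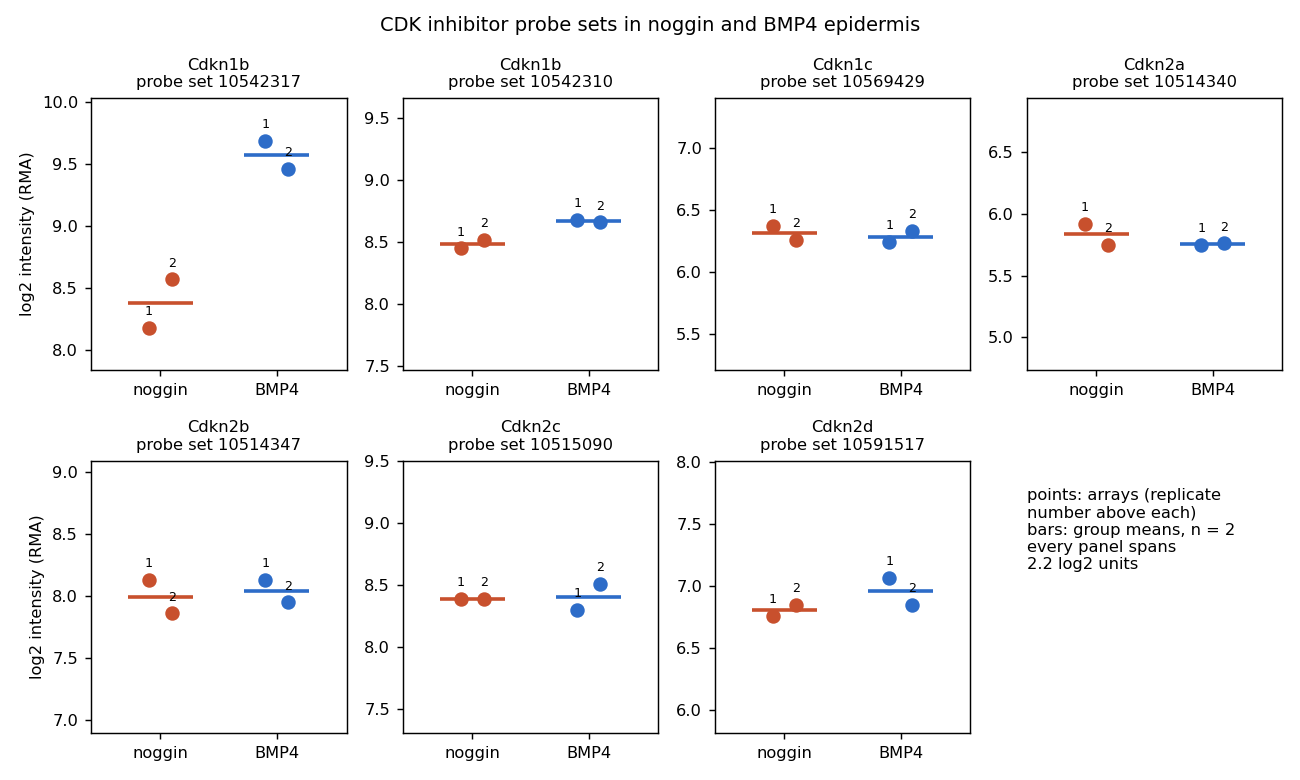
Log2 intensity (vertical axis) of the 7 probe sets of the CDK inhibitors in noggin and BMP4 epidermis, with 1 point for each array and a bar at the mean of 2. Every panel spans the same number of log2 units; the groups stand well apart for Cdkn1b probe set 10542317, at 8.18 and 8.57 in noggin against 9.69 and 9.46 in BMP4, and lie within 0.31 of each other in all other panels.

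Cdkn1c, which encodes p57, an imprinted inhibitor expressed mainly from the maternal allele, did not separate the groups. It read 6.37 and 6.26 in noggin epidermis, against 6.24 and 6.33 in BMP4 epidermis. The groups overlapped, the highest value being that of a noggin array and the next that of a BMP4 array. The difference was 0.03, with an interval from -0.23 to 0.30 (limma, adjusted p = 0.996). A 2-fold change of intensity in either direction lies outside the interval at this probe set. Its values were just above the array medians of 6.04 to 6.06, and RMA compresses differences of dim probe sets.

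Among the INK4 genes, Cdkn2d came nearest to a separation. It encodes p19 of the INK4 class, which is a different protein from p19Arf of the Cdkn2a locus. Cdkn2d read 6.76 and 6.85 in noggin epidermis, against 7.07 and 6.85 in BMP4 epidermis. The groups did not overlap, but noggin replicate 2 and BMP4 replicate 2 were only 0.0063 apart. The difference was -0.16, with an interval from -0.48 to 0.16 (limma, adjusted p = 0.949), and it was -0.05 without BMP4 replicate 1.

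Cdkn2b, the gene of p15, read 8.13 and 7.86 in noggin epidermis, against 8.13 and 7.95 in BMP4 epidermis. Replicate 1 was the higher array in both groups, and the groups overlapped. The difference was -0.04, with an interval from -0.43 to 0.34 (limma, adjusted p = 0.998). The gap within noggin, 0.269, exceeded the difference of the group means.

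Cdkn2c, which encodes p18, read 8.39 in both noggin arrays, against 8.30 and 8.51 in BMP4 epidermis. The BMP4 arrays lay on either side of the noggin pair. The difference was -0.01, with an interval from -0.32 to 0.30 (limma, adjusted p = 1.0).

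Cdkn2a encodes p16 and, from another first exon and reading frame, p19Arf, which acts on the p53 inhibitor MDM2 and not on a kinase. The platform lists transcripts of both for the 1 probe set, so the products cannot be told apart. Cdkn2a read 5.92 and 5.75 in noggin epidermis, against 5.75 and 5.76 in BMP4 epidermis. All arrays lay below their own median over all probe sets, where detection is unknown. The difference was 0.08, with an interval from -0.20 to 0.37 (limma, adjusted p = 0.98), and noggin replicate 1 alone stood above the other arrays.

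Over the 6 measured members, the noggin pair lay wholly below the BMP4 pair for 2 (Cdkn1b and Cdkn2d), wholly above for 0, and 4 overlapped. Among all named genes the shares were 17.9% below, 15.7% above and 66.4% overlapping. With 6 genes, the members' count cannot be told from those shares. The median difference of the 6 was -0.03, and that of all named genes was -0.0064. The 5 members other than Cdkn1b differed by -0.16 to 0.08.

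**Figure D2:**
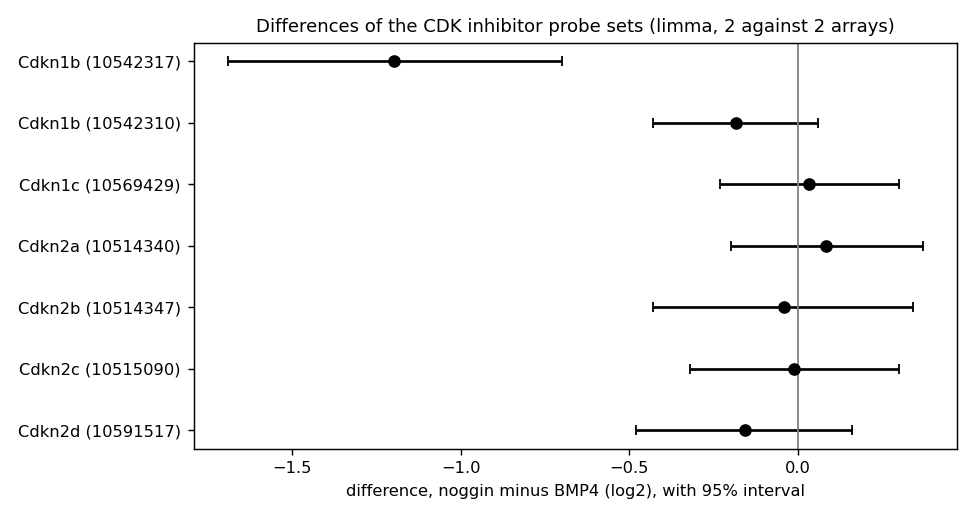
Difference of noggin minus BMP4 (log2, horizontal axis) for each CDK inhibitor probe set, with 95% intervals from limma on 2 against 2 arrays. The interval of Cdkn1b probe set 10542317, from -1.69 to -0.70, lies apart from 0, and the intervals of the other 6 probe sets include 0, although no adjusted p was below 0.05.

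Since the groups did not overlap at the representing Cdkn1b probe set, leaving out 1 array could change the size of its difference but not the sign. Leaving out replicate 1 or replicate 2 of noggin gave -1.003 and -1.39, and leaving out replicate 1 or replicate 2 of BMP4 gave -1.08 and -1.31, with adjusted p between 0.523 and 0.947 (limma). The 4 differences between single noggin and BMP4 arrays ran from -1.51 to -0.89, against 0.392 within noggin and 0.228 within BMP4. Each of the 4 exceeded the gap within either group at this probe set, whose higher mean came from the BMP4 arrays. For Cdkn1c, Cdkn2a, Cdkn2b and Cdkn2c, leaving out at least 1 of the arrays turned the sign.

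**Figure D3:**
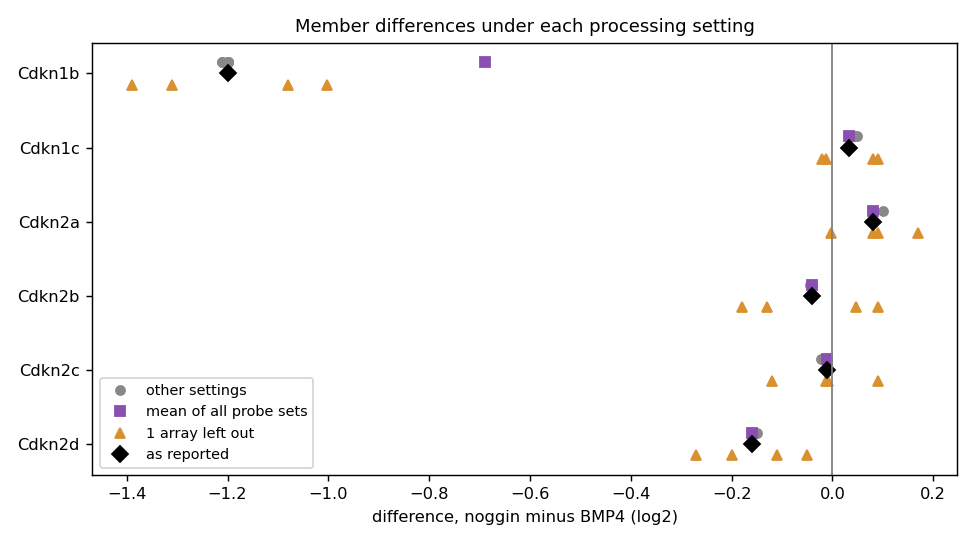
Difference of noggin minus BMP4 (log2, horizontal axis) for the 6 measured members as reported (diamonds), with 1 array left out (triangles), with each gene's probe sets averaged (squares) and under the other settings (circles). Cdkn1b lies between -1.39 and -1.003 with 1 array left out and at -0.69 with both probe sets averaged, while the other members lie on or near 0.

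The kinases and cyclins that the inhibitors act on were mostly near level. Of 11 measured genes, 0 passed the test, the noggin pair lay wholly below the BMP4 pair for 3 and wholly above for 1, and the median difference was -0.04. Of all named genes, 17.9% lay wholly below and 15.7% wholly above. Without BMP4 replicate 1 the median was -0.0047. The 4 direct partners of the inhibitors differed by -0.04 to 0.15. Ccnd1, the D-type cyclin blocked through INK4 binding of its kinase, read 9.96 and 9.95 in noggin against 10.09 and 9.90 in BMP4. Cdk4 differed by -0.02, and Cdk6, the other kinase of D-type cyclins, by 0.15. Cdk2, the main CIP/KIP target, read 6.43 and 7.10 in noggin against 6.67 and 6.83 in BMP4, and its difference of 0.02 has an interval from -0.68 to 0.71.

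The 3 cyclins of smallest p in this list were lower in noggin, as Cdkn1b was. Ccna2, which encodes cyclin A2 of S phase and mitosis, read 8.24 and 8.44 in noggin against 9.09 and 8.99 in BMP4, a difference of -0.70. Ccnb2, a mitotic B-type cyclin, read 9.41 and 9.49 in noggin against 10.03 and 9.83 in BMP4, a difference of -0.48. Ccnd2, another D-type cyclin, differed by -0.25. Adjusted p of the 3 lay between 0.732 and 0.880 (limma). All 3 had groups that did not overlap, which picking by smallest p favours, and 17.9% of all named genes lay wholly below in noggin.

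Proliferation genes averaged lower in noggin for all 14 measured. The noggin pair lay wholly below the BMP4 pair for 8, against 17.9% of all named genes, and the groups overlapped for the other 6, among them Top2a, a topoisomerase of dividing cells, at 9.31 and 9.98 in noggin against 10.42 and 9.85 in BMP4. Of the 14, 0 passed the test, and the median difference was -0.33. Foxm1, a transcription factor of mitotic genes, read 6.44 and 6.34 in noggin against 7.40 and 7.24 in BMP4, a difference of -0.93. Aurkb, a mitotic kinase, differed by -0.48, and Mcm6, a subunit of the replicative helicase, by -0.41. The other Mcm genes of the list differed less, from -0.17 for Mcm7 to -0.03 for Mcm4, and Pcna differed by -0.05. The median was -0.15 without noggin replicate 1, -0.21 without BMP4 replicate 1 and -0.21 with each gene's probe sets averaged.

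The RB and E2F genes, through which the kinases act on the cycle, had a median difference of -0.05 over 11 genes, and 0 passed. The noggin pair lay wholly below the BMP4 pair for 3 of them (17.9% of all named genes) and wholly above for 0 (15.7%), and without BMP4 replicate 1 the median was 0.03. E2f8, an atypical repressor E2F, differed by -0.37, Rb1, the retinoblastoma protein gene, by -0.21, and Rbl1, which encodes p107, by -0.16.

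Genes that set the level of CIP/KIP proteins were nearly level. Of 15 genes for their breakdown and for FOXO factors, 0 passed, 4 had the noggin pair wholly below and 1 wholly above the BMP4 pair, against 17.9% and 15.7% of all named genes. The median was 0.03, and -0.01 without BMP4 replicate 1. Skp2, the receptor subunit of the ligase that marks p27 for breakdown, differed by 0.05. Its cofactor gene Cks1b read 10.03 and 10.42 in noggin against 10.55 and 10.46 in BMP4, a difference of -0.28. Dtl, a receptor subunit of the ligase that marks p21, differed by -0.21, and Ubac1, part of a ligase for p27, by 0.18. Foxo1 and Foxo3, FOXO factors known to drive Cdkn1b transcription, differed by 0.03 and 0.06. The other FOXO genes of the list, Foxo4 and Foxo6, differed by -0.11 and 0.08. Skp2, Foxo1 and Foxo3 were named for these roles, and Foxo4 and Foxo6 beside them, all after their values were seen.

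Of 16 measured p53 pathway genes, the setting in which Cdkn1a is best known, 0 passed, 6 had the noggin pair wholly above and 3 wholly below the BMP4 pair, against 15.7% and 17.9% of all named genes, and the median was 0.08. The kinase gene Plk2 differed by 0.35, the p53 inhibitor gene Mdm4 by -0.34 and the stress gene Sesn1 by -0.28. Of 14 regulators of the Ink4/Arf locus, 0 passed, 1 had the noggin pair wholly below the BMP4 pair and 0 above, where all named genes have 17.9% and 15.7%, and the median was 0.01. Ezh2, a Polycomb methyltransferase that represses the locus, differed by -0.22, the Polycomb gene Bmi1 by 0.15 and Ets1, an activator of p16 in human cells, by 0.25.

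The 10 other regulators of CDKs had a median of -0.11, with 0 past the test, 4 with the noggin pair wholly below and 1 wholly above the BMP4 pair, against 17.9% and 15.7% of all named genes. Cdkn3 shares the family's symbol but encodes a phosphatase of CDK2 and CDK1. It read 7.56 and 8.08 in noggin against 8.71 and 8.31 in BMP4, a difference of -0.69. Pkmyt1, an inhibitory kinase of CDK1, differed by -0.31, and its opponent, the phosphatase gene Cdc25c, by -0.45. Cdc25c read 6.31 and 6.35 in noggin against 7.10 and 6.45 in BMP4, so that BMP4 replicate 1 stood above the other 3 arrays.

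**Figure D4:**
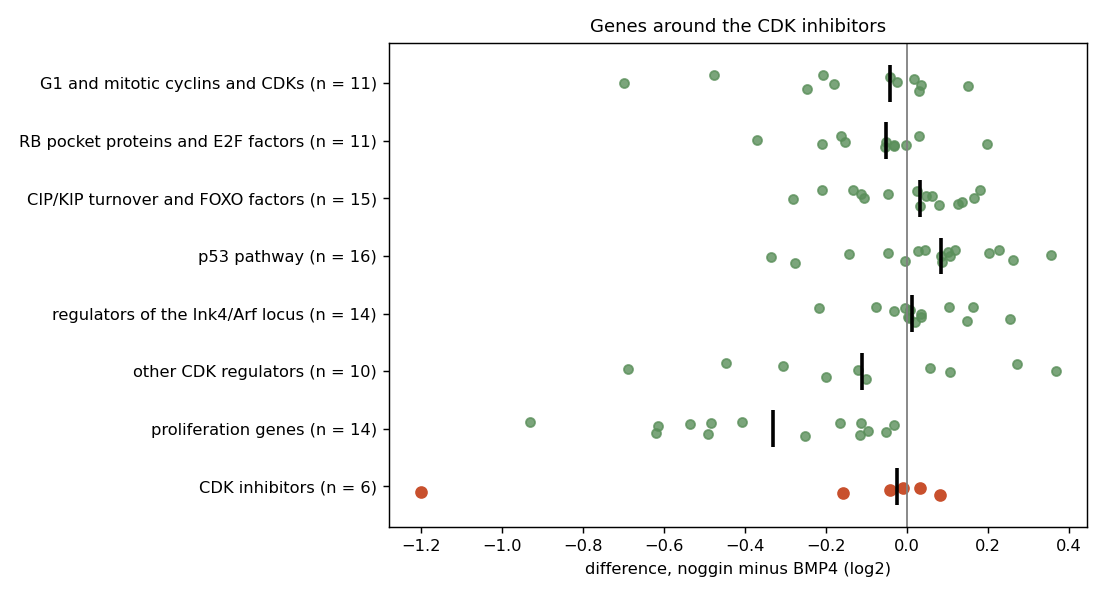
Difference of noggin minus BMP4 (log2, horizontal axis) for genes of 7 lists around the CDK inhibitors and for the 6 measured inhibitors, with 1 point per gene and a bar at each list's median. The proliferation genes have a median of -0.33 and all lie below 0, and the other lists have medians between -0.11 and 0.08. Among the inhibitors, Cdkn1b lies at -1.20 by its representing probe set 10542317. Its other probe set, which is not drawn, differed by -0.18, and the mean of both by -0.69.

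By likeness of pattern, only Cdkn1b could be set against other genes, since it alone of the 6 spanned 1 log2 unit over the arrays. After each gene's mean was subtracted, the nearest of 18704 genes over the 4 arrays was Kif2c, a mitotic kinesin that takes microtubules apart, at a Euclidean distance of 0.142. Next were Prc1, a cytokinesis gene, at 0.288 and Ccdc122 at 0.296. Relative to its mean Cdkn1b stood at -0.80 and -0.40 in noggin against 0.71 and 0.49 in BMP4, and Kif2c at -0.78 and -0.34 in noggin against 0.76 and 0.37 in BMP4. With 4 arrays, likeness says only that these genes had the same order of arrays and about the same span.

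**Figure D5:**
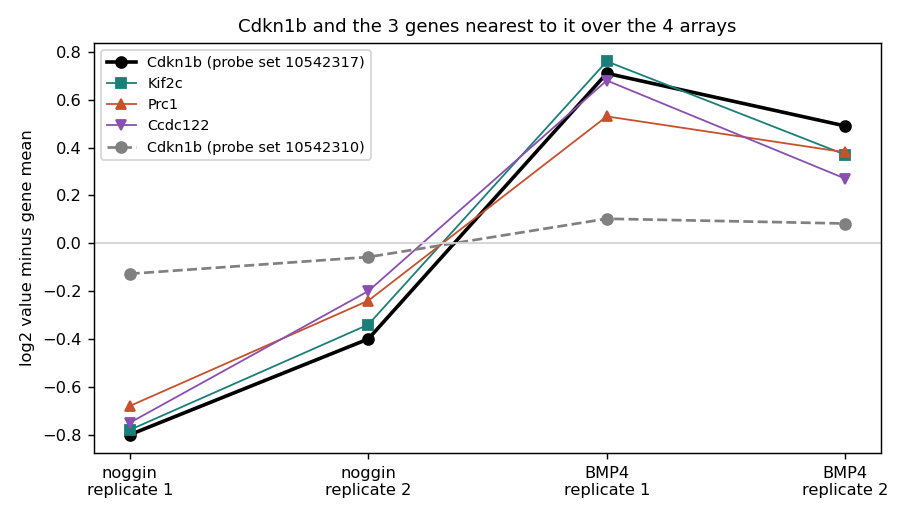
Log2 value minus the gene's mean (vertical axis) in each array for both probe sets of Cdkn1b and the 3 genes nearest to probe set 10542317. The 4 solid lines run together, lowest in noggin replicate 1 and highest in BMP4 replicate 1, while the dashed line of probe set 10542310 has the same order within a span of 0.228.

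Markers of some other cells also differed in mean between the groups. All 8 Langerhans cell and macrophage markers averaged higher in noggin, with a summed linear intensity of 2812 and 3294 in noggin against 1146 and 2319 in BMP4. The 12 skeletal muscle markers were also all higher in the mean, but their sums of 10153 and 5001 in noggin overlapped 2724 and 6468 in BMP4. The 7 sebaceous gland markers summed to 3088 and 2770 in noggin against 1677 and 2198 in BMP4. Scd1, the brightest of them, read 10.67 and 10.61 in noggin against 9.86 and 10.3 in BMP4, and Pparg differed by 0.01. For 4 of the 7 the noggin pair lay wholly above the BMP4 pair, against 15.7% of all named genes. Sums of the 6 measured T cell markers overlapped, at 936 and 1035 in noggin against 711 and 951 in BMP4. On the BMP4 side, the 7 measured hair follicle and shaft markers summed to 525 and 460 in noggin against 3861 and 1070 in BMP4. Most of that sum in BMP4 is the hair keratin gene Krt84, at 5.47 and 5.71 in noggin against 11.6 and 9.09 in BMP4. Krt25 read 5.57 and 5.45 in noggin against 7.72 and 6.8 in BMP4, a difference of -1.74. Msx2 read 6.67 and 6.34 in noggin against 7.63 and 6.92 in BMP4, a difference of -0.78. For these 3 of the 7 the noggin pair lay wholly below the BMP4 pair, against 17.9% of all named genes. The list's median difference was -0.12, and Krt71, Hoxc13, Krt35 and Krt27 differed by -0.12 to -0.03. The basal keratinocyte markers summed to 15675 and 16096 in noggin against 17180 and 16338 in BMP4, and the suprabasal and granular ones to 52675 and 52225 in noggin against 50902 and 50534 in BMP4. Without BMP4 replicate 1 the median difference was 0.37 in place of 0.90 for the Langerhans cell and macrophage markers, 0.13 in place of 0.73 for muscle and 0.29 in place of 0.56 for sebaceous gland. Fibroblast, endothelial, melanocyte, Merkel cell and sweat gland markers had medians between -0.01 and 0.16. Without BMP4 replicate 1 the median was -0.19 in place of -0.01 for fibroblast markers and 0.05 in place of 0.14 for endothelial markers, and -0.08 in place of -0.12 for hair markers. No marker has a value of 0 on this scale. The part of these markers in the Cdkn1b difference was not tested.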

How the data were processed

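The authors deposited log2 intensities per probe set, made with Affymetrix Expression Console and RMA, per the submitters' processing notes, with no version or settings given. RMA corrects background, quantile-normalizes arrays and summarizes probes, which compresses differences of dim probe sets. RNA was amplified by the NuGEN pico protocol and labelled with biotin, per the labels' protocols. The number of arrays limits the precision, and detection and scan batches are unknown.

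Of 35556 probe sets, 21789 had 1 symbol, 1621 several and 12146 none. The noggin and BMP4 arrays were compared with limma 3.58.1 (R 4.3.3; lmFit, eBayes, two-sided, 2 residual and 2.08 prior degrees of freedom) over all probe sets with Benjamini-Hochberg adjustment and a threshold of 0.05. The code was tested on simulated data. Members and lists were chosen with earlier results of these arrays known. Genes named were all members, the 3 of smallest p in each list, the direct partners Ccnd1, Cdk4, Cdk6 and Cdk2, and the 3 nearest to a member spanning 1 log2 unit, leaving out predicted genes. Outside that rule, Skp2, Foxo1, Foxo3, Foxo4, Foxo6, Top2a, Mcm4, Mcm7, Pcna, Cdkn2aip and Cdkn2aipnl were chosen after their values were seen. So were the hair markers Krt84, Krt25, Msx2, Krt71, Hoxc13, Krt35 and Krt27 and the sebaceous gland markers Scd1 and Pparg. Motifs were chosen after the promoters were seen. Ccnb1, Trp53 and Bax were not used here, since no probe set carries their symbol alone. Same-numbered arrays deviated with a correlation of -0.12, and the main fit did not pair them by number. This correlation cannot exclude that same-numbered pools were handled together. Alternatives were a replicate block, other priors, a dim filter, 3 normalizations, averaging a gene's probe sets, a threshold of 0.1 and leaving out each array.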

Additional observations from a re-analysis of the deposited data

How the results depend on the processing

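Limma called 0 probe sets under all 14 alternatives, the smallest adjusted p being 0.0954 without BMP4 replicate 2, and no member passed under any of its 12. With the replicate number as a block, 0 probe sets were called with 1736 at an unadjusted p below 0.05 (limma). A block cannot change a difference in this balanced design, and the Cdkn1b difference of -1.20 had an adjusted p of 0.948 (limma). A crossed replicate block, chosen after seeing the data, called 0 with 2441 at an unadjusted p below 0.05. Cdkn1b ranged from -1.21 to -0.69 under the 8 alternatives that keep all arrays, the -0.69 coming from averaging its probe sets. The block, the other priors and the dim filter leave a difference unchanged by construction, so only the rest could move it. With 1 array left out, the range was -1.39 to -1.003 for Cdkn1b, -0.27 to -0.05 for Cdkn2d, -0.0198 to 0.09 for Cdkn1c, -0.0033 to 0.17 for Cdkn2a, -0.18 to 0.09 for Cdkn2b and -0.12 to 0.09 for Cdkn2c. The last 4 genes turned sign in 6 of these fits: without noggin replicate 1 Cdkn1c was at -0.0198 and Cdkn2a at -0.0033, without noggin replicate 2 Cdkn2b was at 0.09, without BMP4 replicate 1 Cdkn1c was at -0.0126 and Cdkn2b at 0.0459, and without BMP4 replicate 2 Cdkn2c was at 0.09. With 1 array left out, list medians ranged from -0.29 to -0.0047 for cyclins and CDKs, -0.10 to 0.0258 for RB and E2F genes, -0.0172 to 0.0084 for CIP/KIP turnover and FOXO genes, 0.0418 to 0.07 for the p53 pathway, -0.0196 to 0.05 for regulators of the Ink4/Arf locus, -0.14 to 0.0006 for other CDK regulators and -0.48 to -0.15 for proliferation genes. Those fits leave 1 array in a group, which is assumed to vary like the other group. No scaling moved the median of all named genes by 0.1. The cause of these shifts was not tested.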

Other observations

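A pair of genes whose symbols derive from Cdkn2a but which are not kinase inhibitors were looked up after the members. Cdkn2aip, which encodes a binding partner of Arf, read 6.64 and 6.82 in noggin against 7.03 and 7.07 in BMP4, a difference of -0.32. Cdkn2aipnl read 7.81 and 8.18 in noggin against 8.47 and 8.18 in BMP4, a difference of -0.33. For both genes the noggin pair lay wholly below the BMP4 pair, as it did for 17.9% of all named genes. Their adjusted p were 0.874 and 0.938 (limma).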
